A study of Caenorhabditis elegans with 2 samples.

Results

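The regions described are 208 peaks of the tagged protein ZK546.5 that lay in divergent promoters, stretches of DNA from which 2 protein-coding genes point away from each other on opposite strands. They were chosen from the pooled peak list by 3 conditions: a signal value at or above a fixed threshold, a place outside chromosomes V and X, and a summit within 500 bp of the annotated 5′ end of a minus-strand gene and, to its right, of a plus-strand gene. The weakest member stood at 14.52 and the strongest divergent peak left out by the threshold at 14.46. The members were 208 of 3323 pooled peaks above the threshold outside V and X, and of 30000 pooled peaks in all. Of the other peaks above the threshold, 1021 had 5′ ends within 500 bp without such a pair (single promoters) and 2094 had no protein-coding 5′ end within 500 bp. Because signal and position chose the members, both are given as descriptions and carry no test.

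Binding was measured by ChIP-seq, in which DNA bound to a protein is recovered with an antibody and sequenced, in 2 samples labelled biological replicates 1 and 2. Both came from whole L4 larvae, the last larval stage of Caenorhabditis elegans, of strain OP231, genotype unc-119(ed3) III; wgIs231. This strain has an integrated transgene for ZK546.5 fused at its C terminus to GFP-FLAG, and the worms were of mixed sex and of unknown age. Both samples shared the unc-119 mutation, the transgene and the stage, so nothing in the data separates an effect of these from binding in other worms. Whole animals were used, so a signal is not assigned to a tissue. A control named in the labels was not analysed here. Read numbers are not in the peak lists, so the depth was unknown.

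A divergent promoter serves a pair of genes from a shared stretch of open DNA, and the start sites and factor sites of both genes can lie close together. In C. elegans many transcripts are trans-spliced, a reaction that replaces the first part of the transcript with a spliced leader, so the annotated 5′ end of a gene can lie downstream of the place where transcription begins. Ribosomal protein genes are among the most strongly transcribed genes of growing animals and are often trans-spliced. Positions are 1-based in build ce11. A pair is written with the minus-strand gene first, and distances are counted from the summit, the base of highest signal in a peak, to the annotated 5′ ends.

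The stretches around 9 summits are shown first because they carry words that recurred at the strongest members. They are not the 9 strongest, and the strong member Y17G7B.20/ash-2 (signal 728), which held neither word, is not shown. They are at most 150 bases, cut at the paired 5′ ends, read 5′ to 3′ on the plus strand of the reference genome, and the summit is base 76 of each. Capitals mark 2 words on either strand: ACCGTA, and a split word made of CTGC and, after any 2 bases, ATCNAAC. The split word was put together after these sequences had been seen.
eef-1A.1/rfc-4, III:6972026-6972175: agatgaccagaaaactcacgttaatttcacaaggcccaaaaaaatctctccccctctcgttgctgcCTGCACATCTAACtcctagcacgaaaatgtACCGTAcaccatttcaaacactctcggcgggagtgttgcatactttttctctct
F01G4.6/pfd-1, IV:11149710-11149859: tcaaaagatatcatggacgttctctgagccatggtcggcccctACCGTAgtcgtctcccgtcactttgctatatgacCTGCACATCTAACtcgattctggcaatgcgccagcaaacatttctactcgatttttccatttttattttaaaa
rps-23/dpm-3, IV:12391268-12391417: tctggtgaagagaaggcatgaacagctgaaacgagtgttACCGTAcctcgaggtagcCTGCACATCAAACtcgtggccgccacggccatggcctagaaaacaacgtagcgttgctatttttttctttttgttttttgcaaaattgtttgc
wapl-1/htz-1, IV:4445832-4445981: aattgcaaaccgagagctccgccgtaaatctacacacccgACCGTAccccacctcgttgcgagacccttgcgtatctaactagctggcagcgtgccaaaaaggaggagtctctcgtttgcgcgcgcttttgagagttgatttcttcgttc
lin-7/elof-1, II:14349634-14349737: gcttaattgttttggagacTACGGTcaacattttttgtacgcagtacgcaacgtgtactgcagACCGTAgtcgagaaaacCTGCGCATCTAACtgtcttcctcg
rheb-1/spk-1, III:9456225-9456374: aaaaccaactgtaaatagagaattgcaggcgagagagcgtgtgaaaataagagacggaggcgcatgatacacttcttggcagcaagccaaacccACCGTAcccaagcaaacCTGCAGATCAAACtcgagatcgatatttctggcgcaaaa
col-38/rpl-5, II:8569460-8569609: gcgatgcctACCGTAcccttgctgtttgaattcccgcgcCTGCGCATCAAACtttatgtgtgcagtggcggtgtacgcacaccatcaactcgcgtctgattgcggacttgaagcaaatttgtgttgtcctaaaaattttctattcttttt
pbs-1/K08D12.3, IV:1709850-1709999: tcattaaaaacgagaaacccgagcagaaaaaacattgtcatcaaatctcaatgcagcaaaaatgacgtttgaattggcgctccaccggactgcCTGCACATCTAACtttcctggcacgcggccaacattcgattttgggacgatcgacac
gtbp-1/K08F4.3, IV:10129118-10129256: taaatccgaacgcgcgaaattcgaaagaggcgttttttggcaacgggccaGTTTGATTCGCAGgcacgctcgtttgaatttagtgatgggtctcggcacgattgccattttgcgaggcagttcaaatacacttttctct
The split word stood within 42 bp of the summit, from the centre of the word, in each of the 14 members that held it, with a median of 11.5 bp. Since the word was read from stretches around summits, this closeness is partly set by where it was read. The pair wapl-1/htz-1 held ACCGTA alone, and pbs-1/K08D12.3 and gtbp-1/K08F4.3 held the split word alone.

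The 3 strongest member peaks lay beside genes of the ribosome and of mitochondrial ATP synthase. The peak between rps-20, which encodes a protein of the small ribosomal subunit, and ekl-4, a homologue of a DNA methyltransferase associated protein, had the highest pooled signal, 1668. It was first in rank in each replicate, with a signal of 974 in replicate 1 and 694 in replicate 2. How the authors scaled one list against another is unknown here, so ranks and not levels were compared. The peak between rps-19, another small subunit protein, and hsr-9, a DNA damage response protein, had a pooled signal of 1006 and ranked 3 in replicate 1 and 6 in replicate 2. The peak between mcrs-1, a microspherule protein homologue, and atp-1, the alpha subunit of mitochondrial ATP synthase, had a signal of 870 and ranked 8 and 9. These 3 were all among the first 10 peaks of each replicate list. They lie at I:14469136-14469555, I:9625843-9626290 and I:12652087-12652493, each with an intergenic summit.

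The next members in order of signal, with rps-23/dpm-3 left for later, joined genes of several lists. The peak between eef-1A.1, translation elongation factor 1 alpha, and rfc-4, a subunit of the replication factor C clamp loader, had a signal of 849 (III:6971890-6972285, ranks 9 and 10). The peak between clsp-1, the claspin homologue, and eef-2, elongation factor 2, had 810 (I:9163289-9163758, rank 11 in each list). Both summits were intergenic, and that at eef-2 was 7 bp upstream of its 5′ end and 258 bp from that of clsp-1. The peak of F01G4.6 and pfd-1, a prefoldin chaperone subunit, had 829 (IV:11149579-11150013, ranks 7 and 13). The peak of Y17G7B.20 and ash-2, a member of a histone methyltransferase complex, had 728 (II:11980079-11980481, rank 14 in each), and its summit was in an annotated exon outside the coding and UTR parts. The peak of wapl-1, a cohesin release factor, and htz-1, a variant histone, had 639 (IV:4445710-4446091, ranks 17 and 16). These peaks kept close places in the replicate lists, with F01G4.6/pfd-1 the farthest apart.

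The remaining members of the 14 strongest joined genes of unlike function. The peak of rps-23, a small subunit protein, and dpm-3, a subunit of dolichol-phosphate mannosyltransferase, had a signal of 715 (rank 15 in each list), and that of tmem-107, a ciliary transition zone protein, and rps-26 had 579 (rank 18 in each). The peak of lin-7, a PDZ domain protein, and elof-1, a transcription elongation factor, had 440 (ranks 26 and 21). That of rheb-1, a small GTPase, and spk-1, a kinase of splicing factors, had 440 (rank 23 in each). The peak of col-38, a cuticle collagen, and rpl-5, a large ribosomal subunit protein, had 356 (ranks 25 and 28), and that of pbs-1, a proteasome core subunit, and K08D12.3 had 321 (ranks 34 and 25). Ranks in both lists stayed within 34 for all 14. The next 11 had signals of 109 to 277 and contained ndk-1/F25H2.6 (277, ndk-1 being a nucleoside diphosphate kinase), farl-11/rpl-33 (253), rpl-20/Y17G9B.5 (250), rpl-15/K11H12.8 (174), lin-53/nra-2 (172.4, lin-53 being a histone-binding protein), rpl-12/lin-54 (136, lin-54 being a DNA-binding subunit of the DRM complex), ska-3/rps-12 (134), drr-2/set-16 (119, set-16 being a histone methyltransferase), gtbp-1/K08F4.3 (117), rps-14/rpl-36 (111) and tiar-1/lelo-4 (109). Over the 25 strongest members the lowest place was 107 in replicate 1, at gtbp-1/K08F4.3, and 209 in replicate 2, at tiar-1/lelo-4.

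Divergent pairs made up a larger share of peaks at each higher range of signal. The single promoter share rose as well, from 23.8% below the threshold to 43.1% at 100 or more. The share without a protein-coding 5′ end in reach fell from 74.6% to 5.88%. Among the 15971 pooled peaks below the threshold outside V and X, 259 (1.62%, 95% Wilson interval 1.44 to 1.83%) met the position rule. Their share was 3.65% (2.97 to 4.48%) of the peaks from the threshold to 20, 7.57% (5.80 to 9.81%) from 20 to 32, and 22.99% (17.5 to 29.5%) from 32 to 100. Of the 51 peaks of 100 or more, 26 (51.0%, 37.7 to 64.1%) were divergent, 22 were at single promoters and 3 had no protein-coding 5′ end in reach. Put the other way, a signal of 100 or more was reached by 26 of the 208 members (12.5%, 8.67 to 17.7%), against a background of 1.53% of all peaks above the threshold outside V and X. The intervals cover the counting of peaks only and not the spread between cultures. Of the strongest 10, 20 and 50 pooled peaks on all chromosomes, 5, 10 and 22 were members.

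**Figure D1:**
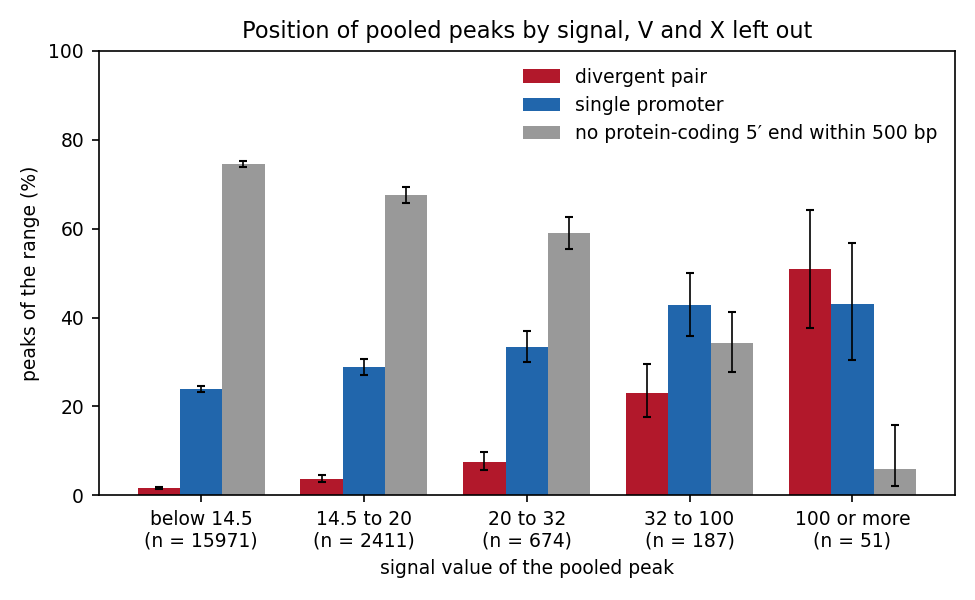
The share of pooled peaks outside V and X (vertical axis, percent, with 95% Wilson intervals) at divergent pairs, at single promoters and without a protein-coding 5′ end within 500 bp, for 5 ranges of signal. The divergent share was 1.62% in the lowest range and 51.0% in the highest, where 3 of 51 peaks had no such 5′ end.

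Most members were weaker than those named above. The signal of the 208 had a lower quartile of 17.0, a median of 22.1 and an upper quartile of 37.4, against medians of 17.9 at single promoters and 16.9 at peaks without an end in reach. The members just inside the threshold were taf-11.3/urm-1 (14.52), vps-51/lin-35 (14.56) and xpo-2/nol-14 (14.57). The divergent peaks just outside it were F49C12.12/vha-17 (14.46), piga-1/eif-2Bepsilon (14.39) and ztf-18/F23H11.2 (14.38). The values ran on across the threshold without a step. Chromosomes I, II, III and IV held 60, 45, 58 and 45 members, which were 6.87%, 5.89%, 7.18% and 5.13% of their peaks above the threshold. A further 51 such divergent peaks lay on V or X and were left out by the rule.

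The 208 peaks fell at 206 distinct pairs with 412 genes. The pairs gmps-1/cap-2 and malt-1/ceh-38 each had 2 peaks. At malt-1/ceh-38, ceh-38 encoding a homeodomain factor, the stronger peak (55.8) lay 41 bp inside ceh-38 and the weaker (17.1) 274 bp inside malt-1. At gmps-1/cap-2, cap-2 encoding an actin capping protein subunit, the signals were 35.2 and 14.8. For 3 members 2 pairs were in reach, and the pair with the smaller summed distance was used. Outside V and X, 1371 divergent pairs had ends at most 1000 bp apart, and the member pairs were 15% of these (13.2 to 17.0%). When each replicate list was cut to its 4966 strongest peaks, the length of the pooled list above the threshold, and given the same position rule, replicate 1 gave 199 divergent peaks and replicate 2 gave 137. The gene of the tagged protein itself (II:4935818-4937974) was in none of the 206 pairs, though it is in 1 of the 1371.

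Ribosomal protein genes had the highest share of pairs with a member among the 12 lists. The lists were set by gene symbol with earlier results of these data known, so their order describes these peaks and supports nothing further. Of 42 divergent pairs with a ribosomal protein gene, 30 held a member (71.4%, 56.4 to 82.8%), with a median signal of 56.5 and a range from 14.8 to 1668. Chaperone genes were at 8 of 19 pairs (42.1%, 23.1 to 63.7%), among them the chaperonin subunits cct-1 (98.2, with mig-5) and cct-8 (63.5, with Y55F3AR.2) and the J-domain protein dnj-12 (107, with mtx-1). Proteasome and ubiquitin genes were at 8 of 26 (30.8%, 16.5 to 49.99%), trafficking genes at 10 of 33 (30.3%, 17.4 to 47.3%), chromatin genes at 11 of 37 (29.7%, 17.5 to 45.8%), and RNA synthesis and processing genes at 12 of 45 (26.7%, 15.96 to 41.0%). Mitochondrial genes were at 11 of 46 (23.9%, 13.9 to 37.9%). Translation factors and tRNA synthetases were at 6 of 32 (18.8%, 8.89 to 35.3%), and the elongation factor pairs named above gave 2 of these 6. Replication and cell cycle genes were at 4 of 22 (18.2%, 7.31 to 38.5%). The intervals of the last 3 lists include the 15% of all pairs.

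Transcription factors, collagens and chemoreceptors had the lowest shares of the 12 lists, and their intervals also include the 15% of all pairs. Transcription factor genes were at 2 of 18 pairs (11.1%, 3.10 to 32.8%), collagens at 2 of 18, and chemoreceptor genes at 1 of 29 (3.45%, 0.611 to 17.2%), the weak peak of sdz-7/srh-250 (14.6). The collagen pair of highest signal was col-38/rpl-5, whose other gene is ribosomal. Pairs with neither gene on a list held a member in 115 of 1028 (11.2%, 9.40 to 13.3%), and 25 of these 115 were in the reproducible list.

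**Figure D2:**
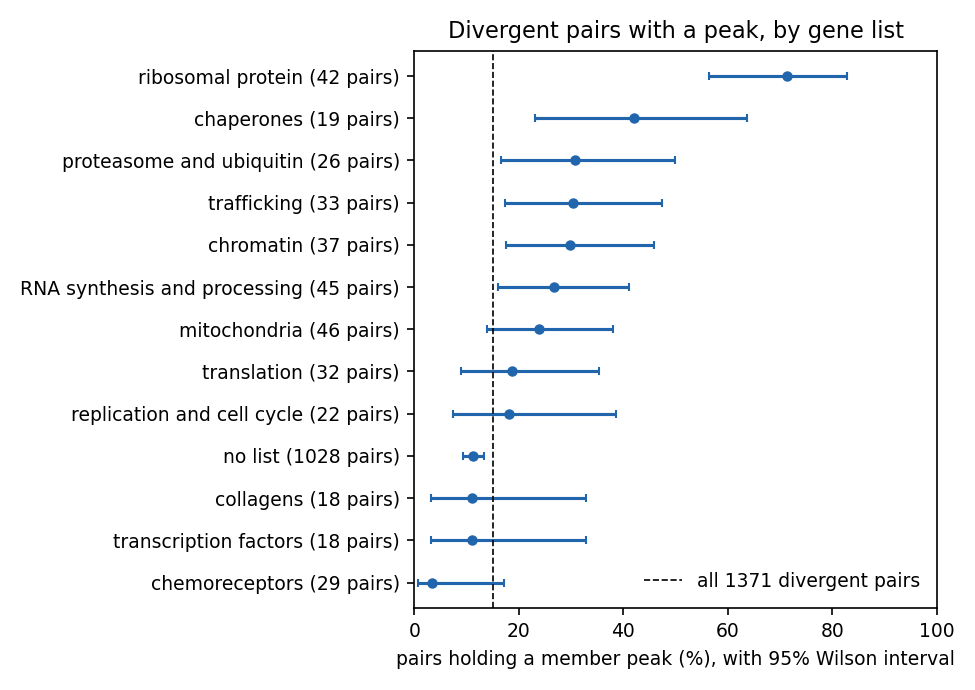
The share of divergent pairs outside V and X that held a member peak (horizontal axis, percent; points, with 95% Wilson intervals as bars) for 12 gene lists and for pairs with neither gene on a list. The ribosomal protein list stood at 71.4% and the chemoreceptors at 3.45%, and the dashed line is the 15% of all 1371 pairs.

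In 20 pairs both genes were on a list. Besides pairs already named, these were rpl-7A/set-21 (83.1), rps-10/rpl-24.1 (58.4), pbs-2/eif-6 (57.5), rpl-36.A/nuo-1 (33.0, nuo-1 being a subunit of mitochondrial complex I), hsp-110/rpn-3 (29.8), snr-3/rsp-5 (28.0), aps-3/rpl-17 (25.97), pas-4/rpb-3 (21.7), cpf-1/rpl-26 (16.4), vps-25/uba-2 (15.99) and rps-9/lsm-1 (14.8). The pair hsp-110/rpn-3 joins a chaperone with a proteasome regulatory subunit, and snr-3/rsp-5 a core splicing protein with a splicing regulator. The pair pas-4/rpb-3 joins a proteasome core subunit with an RNA polymerase II subunit. Core histone genes stood in the pairs his-31/his-32 (30.1) and his-67/his-68 (27.2). Both peaks were weaker than that at the variant histone gene htz-1 (639), and neither was in the reproducible list. The peak of his-67/his-68 had no summit within 100 bp in replicate 1 and ranked 5309 in replicate 2. Core histone mRNAs are made in bulk during DNA replication, but no expression was measured here.

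Within a pair the summit was usually between the ends. Of the 208 summits, 185 (88.9%, 84.0 to 92.5%) lay between the paired 5′ ends, 12 inside the minus-strand gene and 11 inside the plus-strand gene, by at most 351 bp. The relative place of the 185, with 0 at the minus-strand end and 1 at the plus-strand end, had a median of 0.497 and quartiles of 0.357 and 0.669, and 96 of them (51.9%, 44.7 to 59.0%) were in the central tercile of the gap. At gaps above 500 bp a summit within 500 bp of both ends can only lie between them. A window of 500 bp around each end also favours the middle of wide gaps. Both the share between the ends and the central share are therefore partly set by the rule. By side, 106 of the 208 summits were nearer to the minus-strand end and 102 to the plus-strand end. The nearest end was at a median of 121.5 bp and the farther one at 304.5 bp, and 44, 77 and 155 summits lay within 50, 100 and 200 bp of an end.

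The ends of the pairs were a median of 405 bp apart (quartiles 275 and 565), against 455 bp over all 1371 pairs. A member was held by 23 of 213 pairs with gaps up to 200 bp (10.8%), 82 of 388 from 200 to 400 bp (21.1%), 65 of 316 from 400 to 600 bp (20.6%), 31 of 258 from 600 to 800 bp (12.02%) and 5 of 196 above that (2.55%). The stretch in which a summit can be within 500 bp of both ends narrows with the gap and reaches 0 at 1000 bp, so the low shares of wide pairs follow in part from the rule. The narrowest pairs were Y59E9AL.36/nbet-1 (20 bp, signal 27.9), ZC518.8/ccr-4 (44 bp, 61.6, ccr-4 being a deadenylase) and F16C3.2/F16C3.3 (56 bp, 19.9). None of these 3 summits lay between the ends. The widest were sqv-3/vha-1 (900 bp, 27.1, vha-1 being a subunit of the vacuolar proton pump), T08G11.2/T08G11.3 (844 bp, 15.4) and col-38/rpl-5 (839 bp, 356). Across the 208 members, which share libraries, Spearman's rho of signal was 0.05 with the gap, 0.09 with the distance to the nearest end and 0.40 with the GC content of the 200 bp around the summit.

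**Figure D3:**
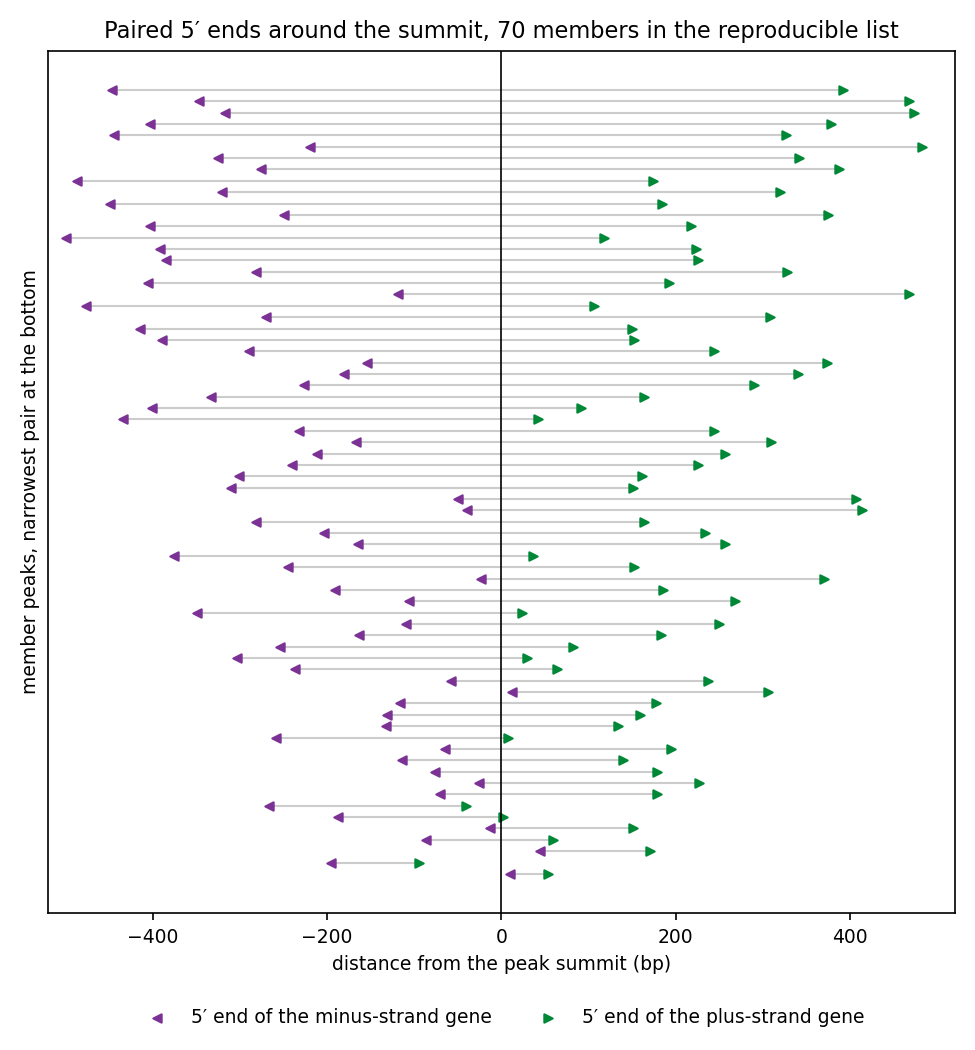
Distance from the summit (horizontal axis, bp) of the minus-strand and plus-strand 5′ ends of the 70 members that overlap the reproducible list, 1 line per member, narrowest pair at the bottom. In 65 of the 70 the summit at 0 lay between the ends.

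By the annotation, 159 summits fell between genes. The rest were 16 in introns, 16 in exons of neither coding nor UTR sequence, 10 in 5′ UTRs and 7 in coding exons. The stretch between the ends of 28 pairs also held the 5′ end of a non-coding gene. In 25 of these the gene was an unclassified non-coding RNA, in 3 a piRNA, and in 1 each a miRNA, an snRNA or a snoRNA, and a pair could hold more than 1 kind. The miRNA was cel-mir-5549, between eef-1A.1 and rfc-4, and the snRNA was sls-2.8, a gene of the spliced leader RNA SL2, between tim-1 and Y75B8A.23 (signal 39.2). Which of the genes at such a peak it belongs to was not tested.

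At ribosomal protein pairs the pooled summit lay more often toward the other gene. In 28 member pairs exactly 1 gene was on the ribosomal protein list, and the summit lay between the ends in each. It was nearer to the partner in 20 and nearer to the ribosomal protein gene in 8 (28.6%, 15.3 to 47.1%). The median distance was 295.5 bp to the ribosomal protein end (quartiles 231 and 379) and 170.5 bp to the partner end (121 and 311). Among the 19 such pairs in the reproducible list, 14 were nearer to the partner, and among the other 9 it was 6. The share nearer to the ribosomal protein gene was 42.9% in the list of replicate 1 alone and 28.6% in that of replicate 2 alone. Summits of members matched in both replicates were a median of 28 bp apart between the lists. A pair with its summit near equal distance can therefore change side. Trans-splicing moves annotated ends downstream to a different degree from gene to gene, and its part in these distances was not tested.

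Single pairs show the range. The summit of tmem-107/rps-26 was 407 bp from rps-26 and 50 bp from tmem-107, and that of rps-0/rbg-3 (54.5) was 349 bp from rps-0 and 24 bp from rbg-3. At rps-20/ekl-4 the distances were 245 and 152 bp, at rps-19/hsr-9 282 and 163 bp, and at rps-23/dpm-3 290 and 244 bp. The opposite order was found at rpl-12/lin-54, 23 bp from rpl-12 and 370 bp from lin-54, and at rpl-7A/set-21, 76 and 178 bp. The summits of ubq-2/frg-1 (320 and 319 bp, ubq-2 being a ubiquitin and ribosomal protein fusion gene) and rps-22/polh-1 (134 and 132 bp) were within 2 bp of equal distance. The other pairs nearer to the ribosomal protein end were rpl-5, rpl-15, rpl-1, rpl-9, rps-3 and rps-9 with col-38, K11H12.8, Y71F9AL.9, lpd-7, sna-3 and lsm-1. The rest, nearer to the partner, were those of rpl-33, rpl-20, rps-12, rps-15, rpl-4, rpl-22, rpl-36.A, rpl-21, rpl-17, rpl-31, rpl-30, rpl-26 and rps-29, at 177 to 475 bp from the ribosomal protein end and 30 to 378 bp from the partner. In the pairs rps-14/rpl-36 and rps-10/rpl-24.1 both genes were ribosomal, with summits at 276 and 387 bp and at 385 and 225 bp from the ends in that order.

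**Figure D4:**
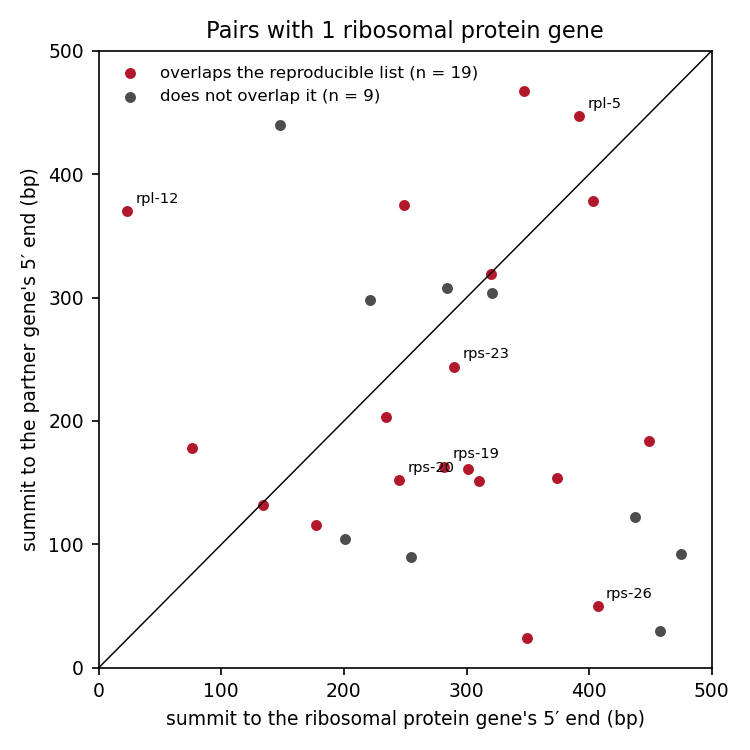
Distance of the summit from the ribosomal protein gene's 5′ end (horizontal axis, bp) and from the partner's (vertical axis, bp) in the 28 member pairs with exactly 1 ribosomal protein gene, by overlap with the reproducible list. Points below the diagonal are nearer to the partner, 20 of 28.

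The authors' reproducible list, made by thresholding on the irreproducible discovery rate, a measure of how well peak ranks hold between replicates, overlapped 70 of the 208 members (33.7%, 27.6 to 40.3%), against a background of 7.52% of all peaks above the threshold outside V and X. The share was 109 of 1021 at single promoters (10.7%) and 71 of 2094 at peaks without an end in reach (3.39%). The 304 peaks of that list are the 304 strongest of the pooled list, so this is again a statement on signal, and its lowest peak stood at 32.2. The weaker gmps-1/cap-2 peak (14.8) was counted because it overlaps a listed peak, and 69 members were themselves in the list. Overlap also raised the comparison shares. Of the 250 background peaks counted, 234 were themselves listed, and of the 109 at single promoters, 101. The 70 had a median gap of 461.5 bp, against 381 bp for the other 138, and a median GC content of 43.0% against 35.8%.

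A summit within 100 bp was found for 169 members in replicate 1 (81.3%, 75.4 to 85.97%), against a background of 59.6%, and for 158 in replicate 2 (76.0%, 69.7 to 81.3%), against 69.6%. Both lists held one for 127 members (61.1%, 54.3 to 67.4%), against a background of 37.1%, while 42 were matched in replicate 1 only, 31 in replicate 2 only and 8 in neither. Both replicates feed the pooled list, so such matches are not independent of the choice of members. Below a signal of 32 the members' share matched in both was 43.2% (60 of 139, 35.2 to 51.5%) and that of single promoter peaks 36.0% (33.0 to 39.2%), and these intervals overlap. Below that signal 72.7% of members and 59.0% of single promoter peaks were matched in replicate 1. In replicate 2 the order was turned, with 64.7% of members and 67.9% of single promoter peaks.

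For the 127 members matched in both replicates, summits in the replicate lists were a median of 28 bp apart (quartiles 6.5 and 47.5 bp), 17.5 bp in the reproducible set and 40 bp in the rest, and 42 bp at single promoters.

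Over the 127 members matched in both lists, Spearman's rho between the replicate signals was 0.79. It was 0.85 for the 68 in the reproducible list and -0.06 for the other 59, whose pooled signals were at most 31.6. At single promoter peaks it was 0.39 over 425 matched in both lists. The reproducible list is the top of the pooled list, which both replicates feed. A rho within either set of members is therefore partly set by the choice on pooled signal and is no separate measure of agreement. The ranks were equal in both lists for rps-20/ekl-4, clsp-1/eef-2, Y17G7B.20/ash-2, rps-23/dpm-3, tmem-107/rps-26 and rheb-1/spk-1, as given above. By the ratio of the ranks they were farthest apart for rpl-21/C14B9.10 (186 in replicate 1 and 26112 in replicate 2, pooled signal 31.6), rpl-9/lpd-7 (282 and 19040, 26.7) and F29B9.11/jmjd-1.2 (129 and 6090, 42.3, jmjd-1.2 being a histone demethylase). In each of these 3 replicate 1 ranked the peak higher. The pair rps-10/rpl-24.1 was at 116 and 3831. Among the 30 pairs with a ribosomal protein gene, 21 were in the reproducible list.

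**Figure D5:**
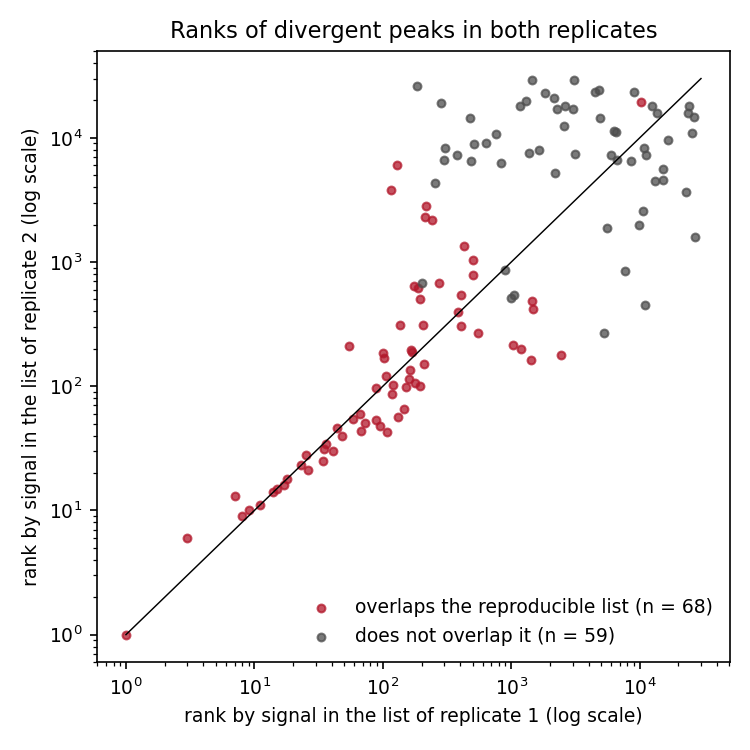
Rank by signal in the list of replicate 1 (horizontal axis, log scale) and of replicate 2 (vertical axis, log scale) for the 127 members with a summit within 100 bp in both lists, by overlap with the reproducible list. The 68 in that list hold the strongest ranks, from 1 in both lists at rps-20/ekl-4, and the 59 others begin at rank 186 in replicate 1 and 266 in replicate 2.

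The words marked in the sequences were counted in 200 bp windows centred on summits, on both strands. ACCGTA was in 48 of the 208 member windows (23.1%, 17.9 to 29.3%), in 8.42% of single promoter windows, in 5.44% of all pooled windows and in 9.27% of windows on the midpoints of 928 divergent pairs without a pooled peak. It was in 15 of the 25 strongest members (60.0%, 40.7 to 76.6%) and in 14 of the 25 strongest single promoter peaks (56.0%, 37.1 to 73.3%). Its share was 40.0% of the 70 members in the reproducible list and 14.49% of the other 138. By gene, ACCGTA was in 14 of the 30 ribosomal protein pairs and in 34 of the 178 other members. The ribosomal protein pairs were also stronger, with a median signal of 56.5 against 22.1 over all 208 members. The part of signal in this difference was not tested. Matches lay at a median of 34 bp from the summit, against 28 to 64 bp for the other fixed words searched. GAGCGC (33.5 bp) and GCGCAC (35 bp) were close to it. ACCGTA was among the words noted in an earlier look at these data, so its count is no support for it.

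The split word was rarer and sat at the strongest peaks. It was in 14 of the 208 members (6.73%, 4.05 to 11.0%), in 5 of 1021 single promoter windows, in 2 of 2094 windows without an end in reach, in 1 of 928 pairs without a pooled peak and in 36 of all 30000 pooled windows (0.120%). Of the 14 strongest members 10 held it, of the 25 strongest 11, of those ranked 26 to 70 by signal 3, and of the 138 beyond them 0, which allows a share of up to 2.71% by the Wilson interval. The other 4 of the 14 strongest were rps-19/hsr-9, mcrs-1/atp-1, Y17G7B.20/ash-2 and wapl-1/htz-1. All 5 matches at single promoters were among the 25 strongest of that class. The nuclear genome had 202 exact sites, of which 36 (17.8%) lay within 100 bp of a pooled summit and 22 within 100 bp of a reproducible one, so most sites had no pooled summit that near. Since the word was read from the strongest members, its share among them is no finding, and no test was made.

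Both words stood together in 10 members, on 1 strand in 9 of them, and ACCGTA was upstream of the split word in 8, with 0 to 35 bases between them and a median of 11.5. At rps-20/ekl-4, lin-7/elof-1 and rheb-1/spk-1 there were 11 bases between them, at rps-23/dpm-3 12, and at eef-1A.1/rfc-4 the order was turned, with 17. Of the 10 members with both words, 8 were among the 14 strongest. The split word was read from the strongest members, so the shared strand, order and spacing are no finding. Each word also lay more often on the plus strand in members, the split word 10 times against 4 and ACCGTA 32 times against 17. A match says only that the letters are in the window.

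ACCGTA was 1 of 13 fixed words searched, and the others follow. The first 5 of them were also noted earlier in these data, and several of them share letters on 1 strand or the other, so 1 place can count for more than 1 word. ACGCAG was in 16 of the 20 member windows that held TGCGTCTC, so these shares are not separate. GCGCAC was in 18.3% of member windows (13.6 to 24.1%), against 9.30% at single promoters and 4.96% at divergent pairs without a pooled peak. GAGCGC was in 17.3%, 7.93% and 5.28% of the same sets, AGCGCG in 13.9%, 7.35% and 5.50%, ACGCAG in 17.3%, 11.4% and 6.14%, and TGCGTCTC in 9.62%, 5.48% and 1.62%. TATAAA, the core of the TATA box, was in 18.3% of member windows (13.6 to 24.1%), in 19.8% at single promoters and in 29.5% at pairs without a pooled peak, and in 8.57% of the 70 reproducible members. CCAAT was in 28.4%, 33.1% and 31.4%, TTTCAG in 30.8%, 36.6% and 32.3%, GAGAGA in 17.3%, 20.6% and 11.7%, CCGCCC in 8.17%, 6.27% and 4.53%, CACGTG in 2.88%, 4.11% and 4.53%, and TTTTTT in 74.5%, 67.9% and 72.5%. The median GC content was 38.0% in member windows, 36.5% at single promoters and 33.0% at pairs without a pooled peak, which moves with the shares of words rich in G and C, and its part in them was not tested.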

How the data were processed

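Peak lists in build ce11 were used. Per the text files deposited with them, each replicate's list was made from that replicate's alignments and 1 control file, the pooled list from both replicates, and the reproducible list by thresholding on the irreproducible discovery rate. The aligner and caller were not given in the sources used here. The authors' deposited signal value per peak was used to rank and filter peaks within a list only. Replicate and pooled lists held 30000 peaks each, and the authors label them as peaks and background. The lists in build ce10 were not used.

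The 5′ ends came from Ensembl release 115, all protein-coding transcripts, and sequences from the RefSeq reference genome of WBcel235, the same build as ce11. A summit took the pair of smallest summed distance. Shares carry 95% Wilson intervals. No test was run, since signal and position chose the members and both replicates feed the pooled list. Members, gene lists, the split word and some of the fixed words, ACCGTA among them, were chosen with earlier results of these data known. The genes named are those of the 25 strongest members, of pairs with a ribosomal protein gene, of pairs with both genes on a list, and the extremes of gap, threshold and rank agreement, and a few others named for a count or list after their values were seen. The printed stretches were cut to 150 bases and the pairs in them were chosen after the words were seen. Members on chromosome I were not printed, among them rps-19/hsr-9 (1006), which held neither word. Y17G7B.20/ash-2 (728), also with neither word, was left out. The weaker pairs pbs-1/K08D12.3 (321) and gtbp-1/K08F4.3 (117), with the split word, were printed. Python 3.11.15, numpy 2.4.6, pandas 2.3.3 and scipy 1.17.1 were used, and the assignment of peaks to pairs was tested on simulated data. Alternatives changed the threshold, the reach, the choice of 5′ end, the matching distance, the windows and the lists.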

Additional observations from a re-analysis of the deposited data

How the results depend on the processing

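The counts followed the threshold and the reach. With reproducible peaks only there were 70 divergent peaks at 69 pairs, with a signal of 29 or more 73 at 73, and with ends within 250 bp 77 at 77. Lists of a single replicate gave 137 to 199 peaks at 136 to 195 pairs. The share of summits between the ends was 92.9% in reproducible peaks and 93.2% at a signal of 29 or more. The share in the reproducible list was 94.5% at a signal of 29 or more and 34.7 to 48.9% in single-replicate lists. The share matched in both replicates was 97.1%, 95.9% and 68.8% under the first 3 settings, 47.6% with summits matched within 50 bp and 74.5% within 200 bp. The median gap was 461.5, 457 and 266 bp under the first 3 settings and 377 to 395 bp in single-replicate lists. The share of summits nearer to the ribosomal protein end was 16.7 to 42.9% under all alternatives run, within its interval. It was lowest with ends within 250 bp and highest in the list of replicate 1 alone. Using only the outermost 5′ end of each gene moved none of these values beyond the interval or 1.5 times the count. The share in the reproducible list was not run on reproducible peaks only, nor the match in both replicates on single-replicate lists. Windows of 100 bp moved 10 of 13 word shares and the stretch between the ends 7 of 13, and their lengths differ by construction. No result came from a test, so no paired test was run. The unknown depth limits how many weak peaks can be told from background.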
